A study of Mus musculus with 8 samples.

Results

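The genes described here are 10 interferon-inducible GTPases of the mouse, 6 guanylate-binding proteins (Gbp2, Gbp3, Gbp4, Gbp5, Gbp7 and Gbp9) and 4 immunity-related GTPases (Irgm1, Irgm2, Igtp and Iigp1). They were taken by name from a count table of 22165 genes, by a rule that uses no measured value but was set with earlier results of these data known. All 10 had a row, and all 10 were among the 11079 genes that passed the filter on low counts. RNA was measured in macrophages grown for 7 days from C57BL/6 bone marrow in medium with M-CSF, the growth factor that drives macrophage differentiation. The 8 libraries, 2 in each of 4 groups, crossed genotype with treatment, namely wild-type untreated, wild-type with dimethyl itaconate (DI), Nrf2-/- untreated and Nrf2-/- with DI. DI, an electrophilic and cell-permeable relative of the macrophage metabolite itaconate, was given at 250 µM for 12 h, and the labels name no vehicle for the untreated cells. The Nrf2-/- mice, which lack the transcription factor that drives antioxidant genes, came from a commercial breeder. The age and sex of the mice, and whether the wild-type mice were littermates, are not given in the sources used here. No group received an interferon or a microbial stimulus, so that every level below is one without added interferon.

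Guanylate-binding proteins (GBPs) and immunity-related GTPases (IRGs) are dynamin-like enzymes of cell-autonomous defence. Interferon signals through STAT and IRF factors to their genes, and the proteins then assemble on the vacuoles of Toxoplasma or Chlamydia and on cytosolic bacteria, where they break membranes and expose lipopolysaccharide to the inflammasome. Among the IRGs, Irgm1, Irgm2 and Igtp (also called Irgm3) are regulators that sit on the cell's own membranes and hold the effector IRGs inactive there, while Iigp1 (also called Irga6) is such an effector and loads onto the vacuole of the parasite.

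The genes lie in clusters. On the assembly mm10, Gbp5, Gbp7, Gbp3 and Gbp2 follow each other on the plus strand of chromosome 3 between 142493978 and 142638008. On chromosome 5, minus strand, Gbp9 (105077630 to 105139539) overlaps Gbp4 (105115767 to 105139586). The minus strand of chromosome 11 holds Irgm1 from 48861968 to 48871683. Igtp, at 58199556 to 58207591, and Irgm2, at 58199618 to 58222782, overlap on the plus strand of the same chromosome.

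The promoter stretches of 7 members are shown because they share a short element that STAT and IRF complexes are known to bind. RefSeq windows of GRCm38.p6, reaching from 250 bases before to 50 bases after a start site, were matched for these 7 of 10 members, and Gbp4, Gbp9 and Iigp1 had no entry. Capitals mark the core of the interferon-stimulated response element, which is GAAA, any 2 bases and GAAA (read as TTTC, any 2 bases and TTTC on the other strand), and the gamma-activated sequence TTCNNNGAA, which reads the same on both strands. Each line is written 5′ to 3′ on the strand of the gene, and the positions are given with the build's coordinates.
Gbp5 (chr3:142496709-142496798, plus): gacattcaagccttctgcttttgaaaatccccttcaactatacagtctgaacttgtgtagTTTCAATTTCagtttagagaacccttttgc
Gbp7 (chr3:142530223-142530312, plus): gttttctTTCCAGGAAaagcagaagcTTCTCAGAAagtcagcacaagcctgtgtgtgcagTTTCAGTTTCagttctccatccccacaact
Gbp3 (chr3:142559939-142560034, plus): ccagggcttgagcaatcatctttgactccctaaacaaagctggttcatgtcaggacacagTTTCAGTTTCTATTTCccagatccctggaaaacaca
Gbp2 (chr3:142620544-142620633, plus): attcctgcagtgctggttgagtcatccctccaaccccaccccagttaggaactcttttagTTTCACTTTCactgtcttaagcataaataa
Irgm1 (chr11:48871421-48871510, minus): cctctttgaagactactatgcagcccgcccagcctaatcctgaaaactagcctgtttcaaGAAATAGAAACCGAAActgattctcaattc
Igtp (chr11:58199462-58199551, plus): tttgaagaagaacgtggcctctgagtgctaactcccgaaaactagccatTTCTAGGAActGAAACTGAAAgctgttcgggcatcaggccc
Irgm2 (chr11:58214853-58214942, plus): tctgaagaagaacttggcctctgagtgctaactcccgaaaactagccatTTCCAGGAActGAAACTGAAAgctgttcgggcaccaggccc

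The response element core was present in the windows of 7 of 7 members, and in 3.44% of all 32851 promoter windows of the same length. It began 165 bases before the RefSeq start of Gbp5, 53 before that of Gbp7, 59 before Gbp2, 34 before Igtp and 64 before Irgm2. Gbp3 and Irgm1 each held a pair of overlapping matches, at 45 and 39 bases before the start of Gbp3 and at 30 and 24 bases before that of Irgm1. Gbp3 has 2 windows, of which 1 held the core. The stretches of Gbp5, Irgm1 and Irgm2 lie inside the gene bounds given above, so these starts are not the outermost ones. Those of Gbp3 and Gbp2 run past the annotated gene starts at 142560026 and 142620602, so the starts used for them are not the outermost either. Irgm2 as annotated begins at 58199618, close to Igtp at 58199556, and that start of Irgm2 has no window here. The gamma-activated sequence was found in 4 of the 7 members, Gbp5, Gbp7, Igtp and Irgm2, against 8.3% of all windows. In Gbp5 it began 245 and 52 bases before the start, outside the stretch printed above. The core of the antioxidant response element that NRF2 is known to bind, searched as TGACNNNGC on either strand, was found in 2 of the 7, Igtp and Irgm2, against 12.39% of all windows. The stretches of Igtp and Irgm2 shown above were identical at 86 of 90 bases. These matches describe letters in a window and do not show that a factor was bound there.

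Library totals ran from 5554288 to 15680671 counts, and values are given below as CPM, counts rescaled to a common library total. The reads come from near the 3′ ends of transcripts, so levels are compared within a gene across libraries and never between genes. Nfe2l2, the gene that encodes NRF2, was 40.2 to 88.1 CPM in the 4 Nrf2-/- libraries and 230.3 to 454.3 CPM in the 4 wild-type libraries. Macrophage markers (8 of 8 detected) summed to 4465 and 4232 CPM in wild-type untreated and 4150 and 4725 CPM in wild-type DI libraries. The Nrf2-/- sums were 5259 and 5374 CPM untreated and 3489 and 4156 CPM with DI, without overlap. In each genotype 3 of the 8 fell with DI at an edgeR adjusted p under 0.05. Of all genes tested, 8.68% fell in wild type and 4.0% in Nrf2-/-. The part of these markers in the changes of the members was not tested. Neutrophil markers (7 of 7 detected) summed to 356.0 and 358.2 CPM in wild-type untreated and 240.5 and 307.6 CPM in wild-type DI libraries. Their Nrf2-/- sums were 250.2 and 289.8 CPM untreated and 231.7 and 284.5 CPM with DI. Of the 5 neutrophil markers that passed the filter, none was called with DI in either genotype. Their part in the changes of the members was not tested. Dendritic cell markers summed to 4.67 to 11.4 CPM. Lymphocyte and NK cell markers summed to 0.350 to 2.52 CPM, with Ncr1 and Ifng at 0 in every library. Erythroid markers summed to at most 0.699 CPM, with Hbb-bs and Hbb-bt at 0 in every library, and mast cell and basophil markers to at most 1.03 CPM. Stromal markers summed to 78.7 to 119.2 CPM in the wild-type libraries and to 42.9 to 43.7 CPM in the Nrf2-/- libraries, and their part in the differences between genotypes below was not tested. No label says that replicate libraries are separate mice or cultures, so the p-values reflect only how far these libraries spread, and that spread may be technical. In bulk RNA, fewer cells with a transcript and less of it per cell cannot be told apart.

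Most of these genes were lower with DI in wild-type cells, and by count fewer passed the test in Nrf2-/- cells. In wild type, 8 of 10 members fell with an adjusted p under 0.05 (edgeR's quasi-likelihood test, Benjamini-Hochberg over all genes tested) and none rose, where 8.68% of all genes tested fell and 6.51% rose. Their median log2 fold change was -1.68, beside -0.02 over all genes tested. In Nrf2-/- cells, 5 of 10 fell and none rose, where 4.0% of all genes tested fell and 4.49% rose, and the median was -1.0 beside 0.00. The libraries of both groups did not overlap, with DI lower, for 9 members in wild type and for 8 in Nrf2-/-, as was so for 29.3% of all genes tested in each genotype. No member was higher with DI in this way, where 28.6% of all genes were in wild type and 29.1% in Nrf2-/-. At an unadjusted p under 0.05 by edgeR, 9 members stood in wild type and 8 in Nrf2-/-, each of them lower with DI. The share of all genes tested at an unadjusted p under 0.05 was not counted. Counts at that threshold, here and below, therefore cannot be set against it. DESeq2, run as an alternative, called none higher. It called 9 members lower in wild type, where it called 9.54% of genes lower, and 5 in Nrf2-/-, where it called 4.89%.

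The 10 members summed to 826.8 and 1038 CPM in untreated wild-type libraries and to 319.7 and 367.7 CPM in wild-type DI libraries. The Nrf2-/- untreated libraries held 975.6 and 977.4 CPM and the Nrf2-/- DI libraries 509.8 and 402.2 CPM. All 4 untreated libraries thus lay above all 4 DI libraries, and both Nrf2-/- DI libraries above both wild-type DI libraries. The calls depended on single libraries, as did the number of calls over all genes tested, whose ranges are given in the section on processing below. Without wild-type untreated replicate 2, 4 members were called in wild type. Without either Nrf2-/- untreated library, 2 were called in Nrf2-/-, and 3 without Nrf2-/- DI replicate 1.

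**Figure D1:**
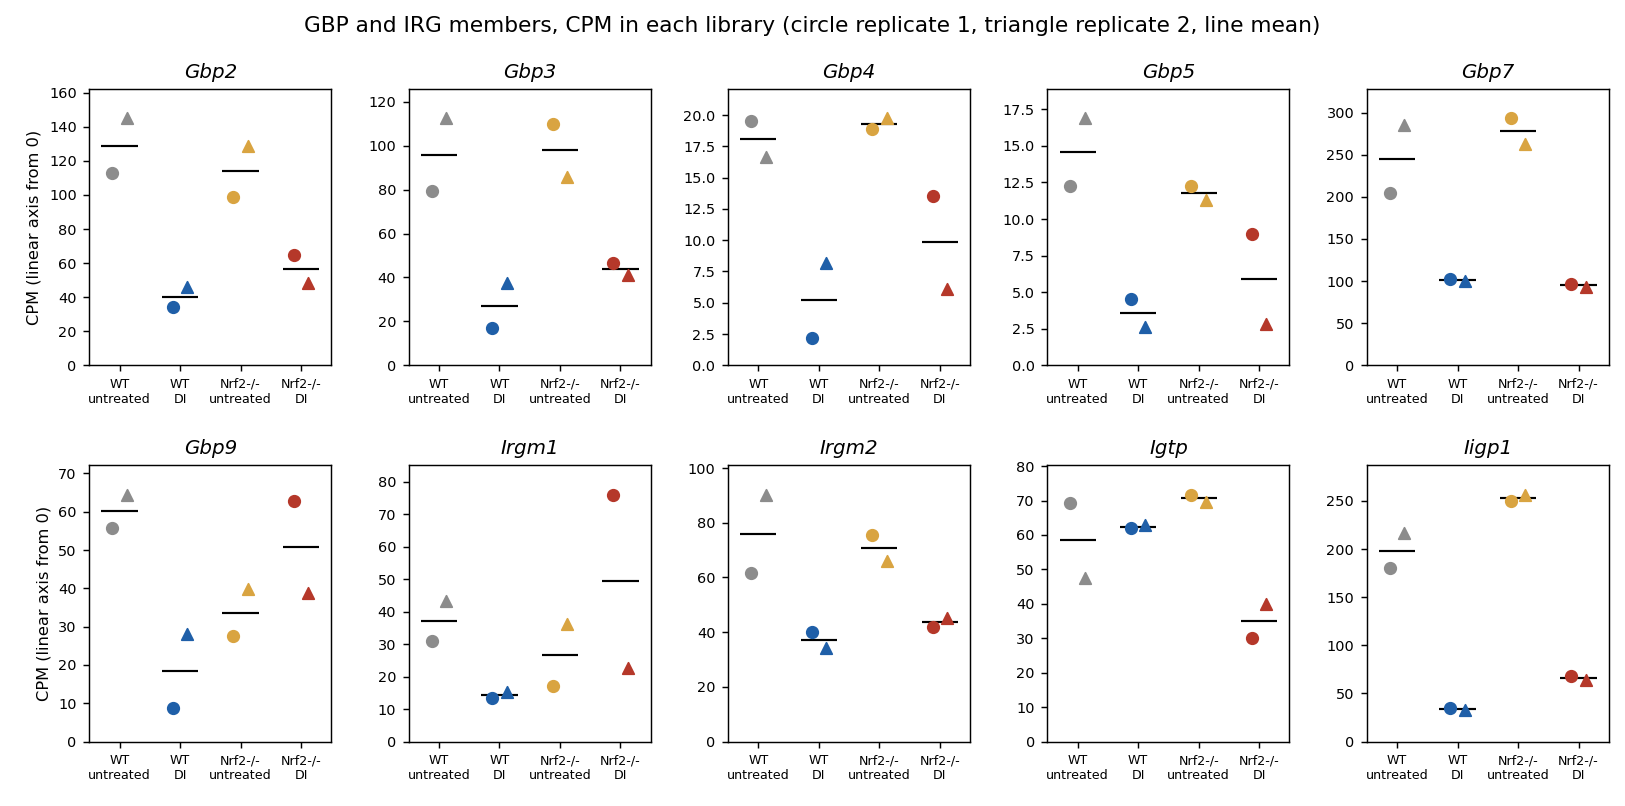
CPM of each member (y axes, linear and starting at 0, scaled for each gene) in the 8 libraries, with circles for replicate 1, triangles for replicate 2 and a line at the mean of each group. Iigp1 and Gbp7 separate DI from untreated libraries by wide gaps in both genotypes, while Irgm1 has 1 Nrf2-/- DI library at 76 CPM, above every other library, and 1 at 22.6 CPM.

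Iigp1, the effector IRG on chromosome 18, showed the lowest fold change of the 10 members in both genotypes. It was 180.5 and 216.5 CPM in untreated wild-type libraries and 34.7 and 32.6 CPM in the wild-type DI libraries. In Nrf2-/- cells it was 250.2 and 256.7 CPM untreated and 67.8 and 64.0 CPM with DI. The 4 untreated libraries lay far above the 4 DI libraries, and within DI the Nrf2-/- libraries lay above the wild-type ones. Iigp1 fell 5.90-fold in wild type, a log2 fold change of -2.56 ± 0.22 (SE, edgeR adjusted p = 2.08e-05). In Nrf2-/- the fall was 3.85-fold, a log2 fold change of -1.94 ± 0.22 (edgeR adjusted p = 0.000938). Both calls held in all 14 alternatives, with log2 fold changes from -2.69 to -2.33 in wild type and from -2.13 to -1.90 in Nrf2-/-.

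The regulatory IRGs differed in the genotype in which they passed the test. Irgm2 was 61.5 and 90.3 CPM in wild-type untreated and 40.2 and 34.2 CPM in wild-type DI libraries, groups that did not overlap, and fell with a log2 fold change of -1.03 ± 0.24 (edgeR adjusted p = 0.0136). Its Nrf2-/- libraries held 75.6 and 66.1 CPM untreated and 41.9 and 45.3 CPM with DI, again without overlap, but the log2 fold change of -0.70 ± 0.24 was not called (edgeR adjusted p = 0.0924). The wild-type call was lost without untreated replicate 2 (-0.73, edgeR adjusted p = 0.121) and without DI replicate 2 (-0.89, 0.0904).

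Igtp, whose promoter stretch differs from the one shown for Irgm2 at 4 of 90 bases, had another pattern. It was 69.3 and 47.6 CPM in wild-type untreated libraries and 61.9 and 62.9 CPM in wild-type DI libraries, which lay between the untreated values, with a log2 fold change of 0.10 ± 0.24 (edgeR adjusted p = 0.820). Among Nrf2-/- libraries it was 71.7 and 69.7 CPM untreated and 30.1 and 39.9 CPM with DI, groups that did not overlap. There it fell with a log2 fold change of -1.01 ± 0.25 (edgeR adjusted p = 0.0272). The call in Nrf2-/- was lost without untreated replicate 1 (-0.99, edgeR adjusted p = 0.148), without untreated replicate 2 (-1.03, 0.134) and without DI replicate 1 (-0.82, 0.167). Igtp and Irgm2 share 162 exon bases, which make up 8.01% of the exon bases of Igtp and 4.39% of those of Irgm2, and the last 500 bases of their transcripts share no 50-base word. The difference between Igtp and Irgm2 was not tested.

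Irgm1, the third regulator, had the largest ratio between replicates of the 3. It was 31.0 and 43.3 CPM in wild-type untreated and 13.5 and 15.3 CPM in wild-type DI libraries. For Nrf2-/- the values were 17.2 and 36.3 CPM untreated and 76.0 and 22.6 CPM with DI. The wild-type groups did not overlap, whereas the Nrf2-/- DI libraries lay on both sides of the higher untreated value. The log2 fold change in wild type was -1.36 ± 0.48 and was not called (edgeR adjusted p = 0.0738). DESeq2 did call it lower (adjusted p = 0.0227), as did edgeR without filtering and in fits of the 4 wild-type libraries alone or without either Nrf2-/- DI library. In Nrf2-/- the log2 fold change was 0.87 ± 0.47 (edgeR adjusted p = 0.260) and became -0.26 without DI replicate 1 (0.788) and 1.50 without DI replicate 2 (0.0385). The higher of the Nrf2-/- DI libraries held 3.36 times the CPM of the lower, a ratio above 2.06, the 95th percentile of all genes tested in that group.

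Among the GBPs of chromosome 3, Gbp7 was the most even between replicates with DI. Gbp7, which is known to take part in defence at vacuoles, was 205 and 284.9 CPM in wild-type untreated and 102.9 and 100.3 CPM in wild-type DI libraries. The Nrf2-/- libraries held 293.2 and 263.0 CPM untreated and 96.9 and 93.4 CPM with DI. All 4 DI libraries lay within 10 CPM of each other and far below the 4 untreated ones. Gbp7 fell with a log2 fold change of -1.27 ± 0.23 in wild type (edgeR adjusted p = 0.00303) and of -1.55 ± 0.23 in Nrf2-/- (0.00395). Both calls held in all 14 alternatives. Of the exon bases of Gbp7, 11.3% also belong to the gene model Gm43802.

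Gbp2, which coats Toxoplasma vacuoles in interferon-treated cells, was 112.7 and 145 CPM in wild-type untreated and 34.1 and 46.1 CPM in wild-type DI libraries. Nrf2-/- cells held 99.0 and 129 CPM untreated and 64.9 and 48.1 CPM with DI. DI and untreated libraries did not overlap in either genotype. Gbp2 fell with a log2 fold change of -1.68 ± 0.27 in wild type (edgeR adjusted p = 0.00137), a call that held in all 14 alternatives, from -1.89 to -1.45. Gbp2 also fell in Nrf2-/-, with -1.01 ± 0.26 (edgeR adjusted p = 0.0340), a call that was lost without any 1 of the 4 Nrf2-/- libraries, with adjusted p from 0.0667 to 0.237 and log2 fold changes from -1.25 to -0.81.

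Gbp3 was 79.2 and 112.5 CPM in wild-type untreated and 16.8 and 37.5 CPM in wild-type DI libraries. In the Nrf2-/- groups it was 110.1 and 85.7 CPM untreated and 46.8 and 40.9 CPM with DI. The groups did not overlap in either genotype, and wild-type DI replicate 2 held 2.23 times the CPM of replicate 1. Gbp3 fell with a log2 fold change of -1.81 ± 0.34 in wild type (edgeR adjusted p = 0.00384), which was kept in all 14 alternatives, from -2.49 to -1.32. The log2 fold change of -1.16 ± 0.33 in Nrf2-/- lay just within the threshold (edgeR adjusted p = 0.0495). It passed in 7 of 14 alternatives, and was lost without either wild-type untreated library (adjusted p 0.0592 and 0.0585), without any of the 4 Nrf2-/- libraries (from 0.133 to 0.268) and with an offset for A-rich coding sequence (0.0568).

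Gbp5, a GBP known to promote inflammasome assembly, had 28 to 261 counts per library. It was 12.2 and 16.9 CPM in wild-type untreated and 4.56 and 2.61 CPM in wild-type DI libraries, and 12.3 and 11.3 CPM in Nrf2-/- untreated and 8.97 and 2.84 CPM in Nrf2-/- DI libraries. The 4 untreated libraries lay above the 4 DI libraries, and Nrf2-/- DI replicate 1 lay closest to them. In wild type it fell with a log2 fold change of -2.07 ± 0.46 (edgeR adjusted p = 0.0103). This call was lost without untreated replicate 2 (-1.82, adjusted p = 0.0752) and without DI replicate 2 (-1.65, 0.109). In Nrf2-/- the log2 fold change of -1.0 ± 0.44 was not called (edgeR adjusted p = 0.174), and became -2.04 (0.0379) without DI replicate 1 and -0.39 without DI replicate 2.

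The overlapping GBPs of chromosome 5 varied most in the wild-type DI group. Gbp4, with 14 counts in its lowest library, was 19.6 and 16.6 CPM in wild-type untreated and 2.20 and 8.20 CPM in wild-type DI libraries. Nrf2-/- libraries held 18.9 and 19.8 CPM untreated and 13.6 and 6.08 CPM with DI. The 4 untreated libraries lay above the 4 DI libraries. Gbp4 fell in wild type with a log2 fold change of -1.72 ± 0.46 (edgeR adjusted p = 0.0261), which was lost without DI replicate 1 (-1.10, 0.132), either untreated replicate (0.0995 and 0.0778) or Nrf2-/- untreated replicate 2 (0.0506). In Nrf2-/- the log2 fold change of -0.98 ± 0.45 was not called (edgeR adjusted p = 0.184). Of the 50-base words in the last 500 bases of Gbp4, 6.43% also occur in Gbp6 or the gene model Gm43302, so a few of its reads may belong to these copies.

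Of the 6 GBP members, Gbp9 had the largest difference between the genotypes in its log2 fold change with DI. It was 55.8 and 64.5 CPM in wild-type untreated and 8.80 and 28.0 CPM in wild-type DI libraries. The order differed in the knockout, where it was 27.5 and 39.8 CPM in Nrf2-/- untreated and 62.9 and 38.9 CPM in Nrf2-/- DI libraries. The wild-type DI libraries lay below the wild-type untreated ones, while the Nrf2-/- groups overlapped. Gbp9 fell in wild type with a log2 fold change of -1.68 ± 0.42 (edgeR adjusted p = 0.0187), and its log2 fold change in Nrf2-/- was 0.59 ± 0.41 (0.390). The wild-type call was lost without DI replicate 1 (-1.07, adjusted p = 0.0869), without untreated replicate 1 (-1.78, 0.0527) or 2 (-1.57, 0.0974), and in a fit of the 4 wild-type libraries alone (-1.66, 0.0524).

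**Figure D2:**
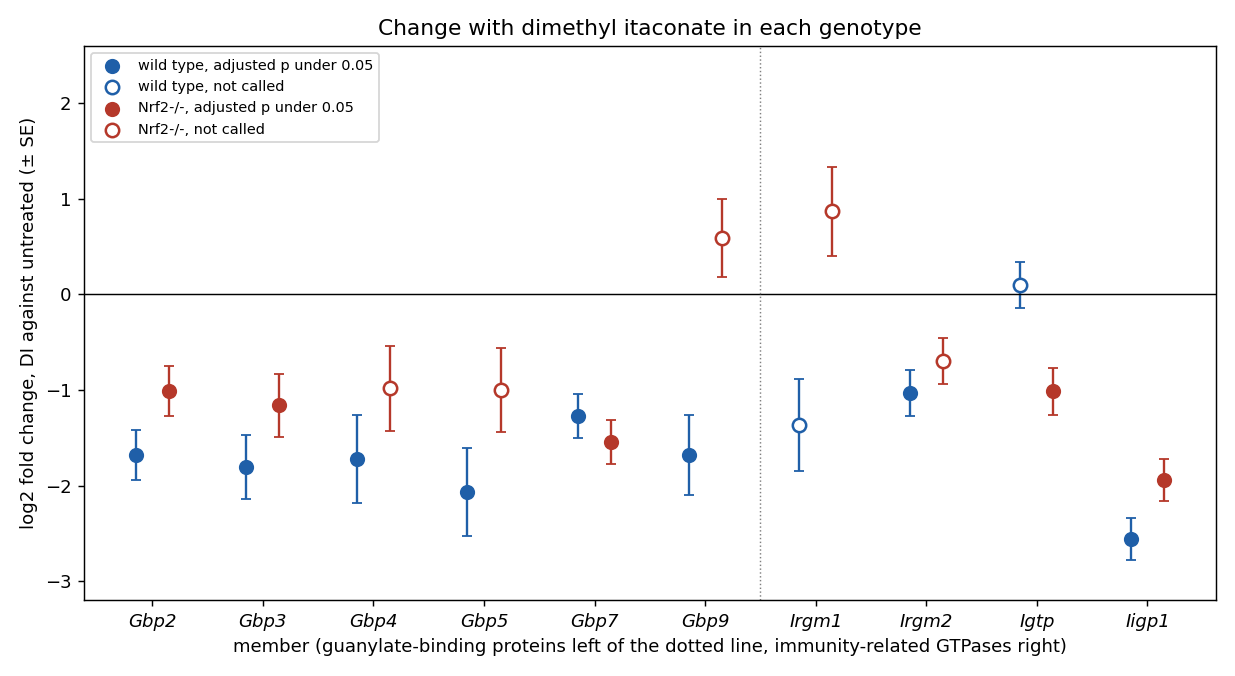
Log2 fold change with DI (y axis, bars ± 1 SE of the fitted model) of each member (x axis) in wild type (blue) and Nrf2-/- (red), filled where the edgeR adjusted p was under 0.05. Of the 6 GBPs, 6 are filled in wild type and 3 in Nrf2-/-, and Gbp9, Irgm1 and Igtp are the members whose values lie on opposite sides of 0 in the genotypes.

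Whether DI acted differently in the genotypes was tested with the interaction of both factors, the log2 fold change in Nrf2-/- minus that in wild type. Of the 10 members, 1 passed in the direction of a higher value in Nrf2-/-, where 4.96% of all genes tested did, and none in the other direction, where 2.59% did. The member was Gbp9, with a difference of 2.27 ± 0.59 (edgeR adjusted p = 0.0362). DESeq2 passed 3 members, 2 higher and 1 lower, where it passed 773 genes higher and 412 lower of 10086 with an adjusted p. By edgeR, 3 members had an unadjusted p under 0.05. The call of Gbp9 held in 6 of 13 alternatives. It was lost without Nrf2-/- untreated replicate 1 (2.01, 0.151) or 2 (2.58, 0.0962), without wild-type untreated replicate 1 (2.37, 0.0635) or 2 (2.16, 0.115), without Nrf2-/- DI replicate 1 (1.89, 0.147), without wild-type DI replicate 1 (1.67, 0.0633), and with the offset for A-rich coding sequence (1.85, 0.0790).

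Next to the threshold were Irgm1, with a difference of 2.23 ± 0.67 (edgeR adjusted p = 0.0613), and Igtp, with a difference of -1.11 ± 0.35 (0.0684). Their signs are opposite, since the Irgm1 mean was lower with DI in wild type and the Igtp mean in Nrf2-/-. For the other 7 members the difference ran from -0.28 for Gbp7 to 1.07 for Gbp5, with adjusted p of 0.208 or more. A fall that was called in wild type and not in Nrf2-/-, as for Gbp4, Gbp5 and Irgm2, is therefore not shown to differ between the genotypes. The median difference of the members was 0.66.

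The genotypes were also compared within each treatment, with libraries that the comparisons above share. In untreated cells none of the 10 members differed by edgeR or by DESeq2, and none had an unadjusted p under 0.05, where edgeR called 0.524% of all genes tested lower and 0.0812% higher in Nrf2-/-. Log2 fold changes ran from -0.83 ± 0.41 for Gbp9 (edgeR adjusted p = 0.512) to 0.35 ± 0.21 for Iigp1 (0.611). Gbp9 was lower in both Nrf2-/- untreated libraries than in both wild-type ones, and Igtp and Iigp1 were higher. Over all genes tested, 21.7% were lower and 21.8% higher without overlap in the same comparison.

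With DI, 3 of 10 members were higher in Nrf2-/- than in wild-type cells, where 11.4% of all genes tested were, and 1 was lower, where 9.74% were. Without overlap between the DI libraries, 6 members were higher in Nrf2-/- and 2 lower, where 30.1% and 30.5% of all genes tested were. Iigp1 was 0.97 ± 0.22 higher on the log2 scale (edgeR adjusted p = 0.00844), and this call held in all 14 alternatives, from 0.67 to 1.01. Irgm1 was 1.77 ± 0.48 higher (edgeR adjusted p = 0.0229), which was lost without Nrf2-/- DI replicate 1 (0.65, 0.325) and without wild-type DI replicate 1 (1.66, 0.140) or 2 (1.85, 0.112). Gbp9 was 1.44 ± 0.42 higher (edgeR adjusted p = 0.0303), which was lost in a fit of the 4 DI libraries (1.44, 0.0655), with the A-rich offset (1.15, 0.0755), without Nrf2-/- DI replicate 1 (1.05, 0.213) and without wild-type DI replicate 1 (0.84, 0.141). Igtp was lower, with a log2 fold change of -0.83 ± 0.25 (edgeR adjusted p = 0.0318). Its call was lost in 6 of 14 alternatives, with values from -0.87 to -0.63, namely without Nrf2-/- untreated replicate 2, Nrf2-/- DI replicate 1, wild-type DI replicate 1 or 2, with the A-rich offset and in the fit of the 4 DI libraries.

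**Figure D3:**
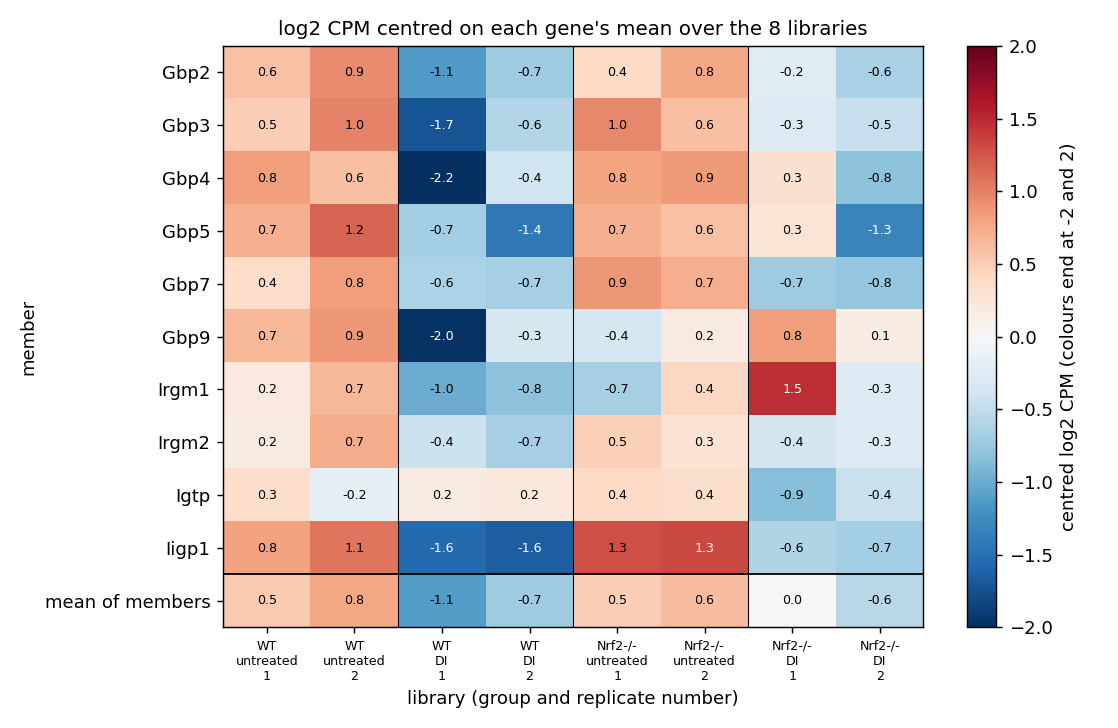
Log2 CPM of each member (rows) in the 8 libraries (columns), centred on the gene's mean over the libraries, with the mean of the members in the last row. The colours and printed values separate untreated from DI libraries in most rows, and the rows of Gbp9, Irgm1 and Igtp depart from the mean row in the Nrf2-/- DI or wild-type DI columns.

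The profile of each member over the 8 libraries was compared with the mean profile of the 10, by the root mean square (RMS) difference of log2 CPM centred on the gene's own mean. The members themselves ran from 0.12 for Gbp2 to 0.73 for Igtp, with a median of 0.46, and the median over all genes tested was 0.76. Of the 11079 genes tested, 651 that are no members lay nearer to the mean profile than the members' median. The members make up that mean profile, so that their nearness to it is partly built in. The mean profile was 0.52 and 0.77 in untreated wild type, -1.12 and -0.70 in wild-type DI, 0.49 and 0.61 in Nrf2-/- untreated and -0.01 and -0.55 in Nrf2-/- DI. The 8 genes outside the list with the smallest RMS difference were Trim30c (0.147), Rab42 (0.160), Dtl (0.196), Itpkb (0.196), Themis2 (0.201), Zfp30 (0.203), Rnf150 (0.210) and Rsad2 (0.210). Rsad2, which encodes the antiviral enzyme viperin, was 2538 and 2663 CPM in wild-type untreated, 956.5 and 1041 in wild-type DI, 2353 and 2520 in Nrf2-/- untreated and 1262 and 909.2 CPM in Nrf2-/- DI libraries. Itpkb, an inositol trisphosphate kinase, was 103.5 and 152.8, 36.8 and 41.1, 137 and 124.4, and 78.5 and 70.5 CPM in the same order of groups. All 8 were chosen for this likeness, so that their fold changes are no further result.

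Of the other GBP and IRG genes, 16 had a row in the table and 11 passed the filter. Gbp2b, Gbp10, Gbp11, Tgtp1 and Irgc1 had too few counts to be tested. Of the 11, 7 fell in wild type, with a median log2 fold change of -1.61, and 3 fell in Nrf2-/-, with a median of -0.44. Among all genes tested, 8.68% fell in wild type and 4.0% in Nrf2-/-. None of the 11 was called higher with DI by edgeR, nor any of the 9 to which DESeq2 gave an adjusted p, and at an unadjusted p under 0.05 by edgeR 10 stood in wild type and 5 in Nrf2-/-. Without wild-type DI replicate 1 the wild-type count was 4, and it was 3 without wild-type DI replicate 2 or without wild-type untreated replicate 2. The Nrf2-/- count was 2 without untreated replicate 1.

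Gm4951 and Gm5431 fell in both genotypes. Gm4951, which shares a cluster with Iigp1, was 289 and 301.2 CPM in wild-type untreated and 142.6 and 130.6 CPM in wild-type DI libraries, and fell with a log2 fold change of -1.11 ± 0.21 (edgeR adjusted p = 0.00422). Its Nrf2-/- values were 381.1 and 364.8 CPM untreated and 136.9 and 161.6 CPM with DI, and fell with -1.32 ± 0.21 (0.00527), a call lost without untreated replicate 1. Gm5431 fell with -0.87 ± 0.21 in wild type (edgeR adjusted p = 0.0171) and -1.65 ± 0.22 in Nrf2-/- (0.00236). The wild-type call of Gm5431 was lost without untreated replicate 2 or either DI replicate and with the A-rich offset, and 28.6% of the 50-base words at its 3′ end occur in other genes. Ifi47, an effector IRG also called Irgd, was 113.9 and 110.9 CPM in Nrf2-/- untreated and 38.4 and 41.4 CPM in Nrf2-/- DI libraries and fell there with -1.49 ± 0.21 (edgeR adjusted p = 0.00309). In wild type, Ifi47 had a log2 fold change of -0.63 ± 0.21 (edgeR adjusted p = 0.0570), and the interaction was not called (-0.86, 0.0875).

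Gbp8, at 105014150 to 105139540 on the minus strand of chromosome 5, spans Gbp9 and overlaps Gbp4. It was 10.4 and 11.4 CPM in wild-type untreated, 2.20 and 4.66 in wild-type DI, 15.8 and 16.0 in Nrf2-/- untreated and 23.5 and 13.0 CPM in Nrf2-/- DI libraries. It fell in wild type with a log2 fold change of -1.61 ± 0.37 (edgeR adjusted p = 0.0123), a call lost without untreated replicate 2 or DI replicate 1, and in Nrf2-/- the value was 0.20 ± 0.33 (0.743). The interaction was called at 1.80 ± 0.50 (edgeR adjusted p = 0.0454) and passed in 5 of 13 alternatives. The settings that lost it include the A-rich offset and leaving out any 1 of the untreated libraries or replicate 1 of either DI group, with values from 1.32 to 2.49 over all alternatives. With DI, Gbp8 was 2.34 ± 0.37 higher in Nrf2-/- than in wild type on the log2 scale (edgeR adjusted p = 0.00112), which held in all 14 alternatives. Gbp6 fell in wild type with -1.92 ± 0.40 (edgeR adjusted p = 0.00770), a call lost without untreated replicate 2 or DI replicate 2, and 77.8% of its 3′ words occur in other GBP genes. Gbp4, Gbp8 and Gbp9 share at most 61 exon bases.

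The remaining wild-type calls were of genes with uneven replicates or low counts. The gene 9930111J21Rik2 fell with a log2 fold change of -2.64 ± 0.48 (edgeR adjusted p = 0.00337), from 112 and 285.1 CPM to 18.1 and 44.8 CPM. Its Nrf2-/- libraries ran from 122.1 to 222.4 CPM. The wild-type call of this gene held in all 14 alternatives, from -3.43 to -1.82. With DI it was also called higher in Nrf2-/- than in wild type, which held in 11 of 14 alternatives. Its interaction of 2.32 ± 0.65 was just called (edgeR adjusted p = 0.0495) and passed in 4 of 13 alternatives, being lost among others by DESeq2 and without any 1 of the Nrf2-/- libraries, wild-type untreated replicate 2 or wild-type DI replicate 1. Tgtp2 fell with -3.32 ± 0.79 (edgeR adjusted p = 0.0148), from 11.5 and 3.30 CPM to 1.10 and 0.466 CPM, a call lost without untreated replicate 1 or either DI replicate. Every 50-base word in the last 500 bases of Tgtp2 also occurs in Tgtp1, and the table gives Tgtp2 372 counts over all libraries and Tgtp1 3. No source used here gives how reads of the shared stretch were assigned, so the values of Tgtp2 are uncertain. The gene 9930111J21Rik1 was called lower on 8 and 25 counts in wild-type untreated and 0 and 1 counts in wild-type DI libraries, a call lost without untreated replicate 2 or either DI replicate and given no adjusted p by DESeq2, and no fold is given for it. F830016B08Rik, Gm4841 and Irgq were called in neither genotype.

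The pathway that induces these genes was read from lists ordered from ligand to target, whose members were chosen with earlier results of these data known. Of the interferon genes, Ifnb1 had 4 to 13 counts per library and was called in neither genotype (edgeR adjusted p = 0.550 in wild type and 0.189 in Nrf2-/-), and Ifna2, Ifna4, Ifng, Ifnl2 and Ifnl3 had 0 counts in every library. None of the 4 receptor genes (Ifngr1, Ifngr2, Ifnar1 and Ifnar2) and none of the 3 JAK kinases tested was called by edgeR or by DESeq2 with DI in either genotype. At an unadjusted p under 0.05, none of the 4 receptors and 1 of the 3 kinases stood in each genotype. The log2 fold changes of the receptors ran from -0.50 to -0.03 in wild type and from -0.45 to 0.38 in Nrf2-/-.

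Of 9 STAT and IRF factors analysed, which carry the signal from the receptor to the genes, 1 fell in Nrf2-/-. The share over all genes tested was 4.0%. In wild type none was called by edgeR or by DESeq2 and none had an unadjusted p under 0.05 by edgeR, although 1 was called higher by edgeR without wild-type DI replicate 2. In Nrf2-/- 4 had an unadjusted p under 0.05 by edgeR and DESeq2 called 3 lower. The Nrf2-/- count was 0 without either untreated replicate or without DI replicate 1 and 2 without DI replicate 2. The median log2 fold change of the 9 was 0.03 in wild type and -0.41 in Nrf2-/-. Irf5 fell in Nrf2-/- with -0.91 ± 0.22 (edgeR adjusted p = 0.0298), lost without either untreated replicate, without DI replicate 1 and with the A-rich offset, and was 0.35 ± 0.22 in wild type (0.312). Irf1, which is known to bind the response element shown in the promoters above, was -0.19 ± 0.22 in wild type and -0.54 ± 0.22 in Nrf2-/- and was called in neither (edgeR adjusted p = 0.608 and 0.146).

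Of 7 inhibitors of interferon signalling, 1 fell in each genotype, a count near the 8.68% and 4.0% of all genes tested that fell in wild type and Nrf2-/-. Ptpn6, a phosphatase that restrains cytokine receptors, fell in wild type with a log2 fold change of -1.85 ± 0.31 (edgeR adjusted p = 0.00182), which held in all 14 alternatives. Usp18, an inhibitor of the type I receptor that is itself interferon-induced, fell in Nrf2-/- with -1.23 ± 0.28 (edgeR adjusted p = 0.0208), a call lost without untreated replicate 1 or DI replicate 1.

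Interferon-induced genes that encode no GTPase were counted in the same way. Of 16 genes known for induction by interferon-gamma, 4 fell in wild type, with a median log2 fold change of -0.40, and 4 fell in Nrf2-/-, with a median of -0.71. Of 23 genes known for induction by type I interferon, 11 fell in wild type (median -0.86), and 9 fell in Nrf2-/- (median -0.87). Beside both lists, 8.68% of all genes tested fell in wild type and 4.0% in Nrf2-/-. Neither edgeR nor DESeq2 called a gene of these lists higher with DI. The difference between these lists and the members was not tested. Without 1 of 3 wild-type libraries (untreated replicate 2 or either DI replicate) the type I count was 7 in wild type, and in Nrf2-/- it was 1 without either untreated library and 3 without DI replicate 1. The interferon-gamma count was 1 or 2 in wild type without untreated replicate 2, either DI replicate or either Nrf2-/- untreated library, and 2 in Nrf2-/- without untreated replicate 2 or DI replicate 1. Slfn1 fell in both genotypes in all 14 alternatives, with -2.04 ± 0.24 in wild type (edgeR adjusted p = 0.000193) and -1.62 ± 0.24 in Nrf2-/- (0.00340). So did Ifit3, an antiviral protein that binds with other IFIT proteins, with -1.16 ± 0.22 (edgeR adjusted p = 0.00447) and -1.74 ± 0.22 (0.00236).

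Mx1 and Mx2, dynamin-like antiviral GTPases related to the GBPs, stand in a list of 4 other large GTPases. Of these 4, 2 fell in wild type and 1 in Nrf2-/-, beside 8.68% and 4.0% of all genes tested. Gvin1 and Atl3, the remaining 2, were called in neither, with log2 fold changes of -1.50 ± 0.93 and -0.23 ± 0.24 in wild type (edgeR adjusted p = 0.314 and 0.546) and -0.66 ± 0.85 and 0.18 ± 0.24 in Nrf2-/- (0.668 and 0.661). Mx1 was 261.6 and 400.2 CPM in wild-type untreated and 85.9 and 76.8 CPM in wild-type DI libraries, and fell with a log2 fold change of -2.03 ± 0.28 (edgeR adjusted p = 0.000500), which held in all 14 alternatives. With Nrf2-/- it was 262.8 and 307.2 CPM untreated and 154.6 and 104.6 CPM with DI, and fell with -1.14 ± 0.27 (0.0247), a call lost without either untreated replicate or DI replicate 2. Mx2 fell in wild type with -1.02 ± 0.25 (edgeR adjusted p = 0.0169), lost without untreated replicate 1, either DI replicate or with the A-rich offset, and was -0.21 ± 0.24 in Nrf2-/- (0.614), with an interaction that was not called (0.81, 0.165).

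**Figure D4:**
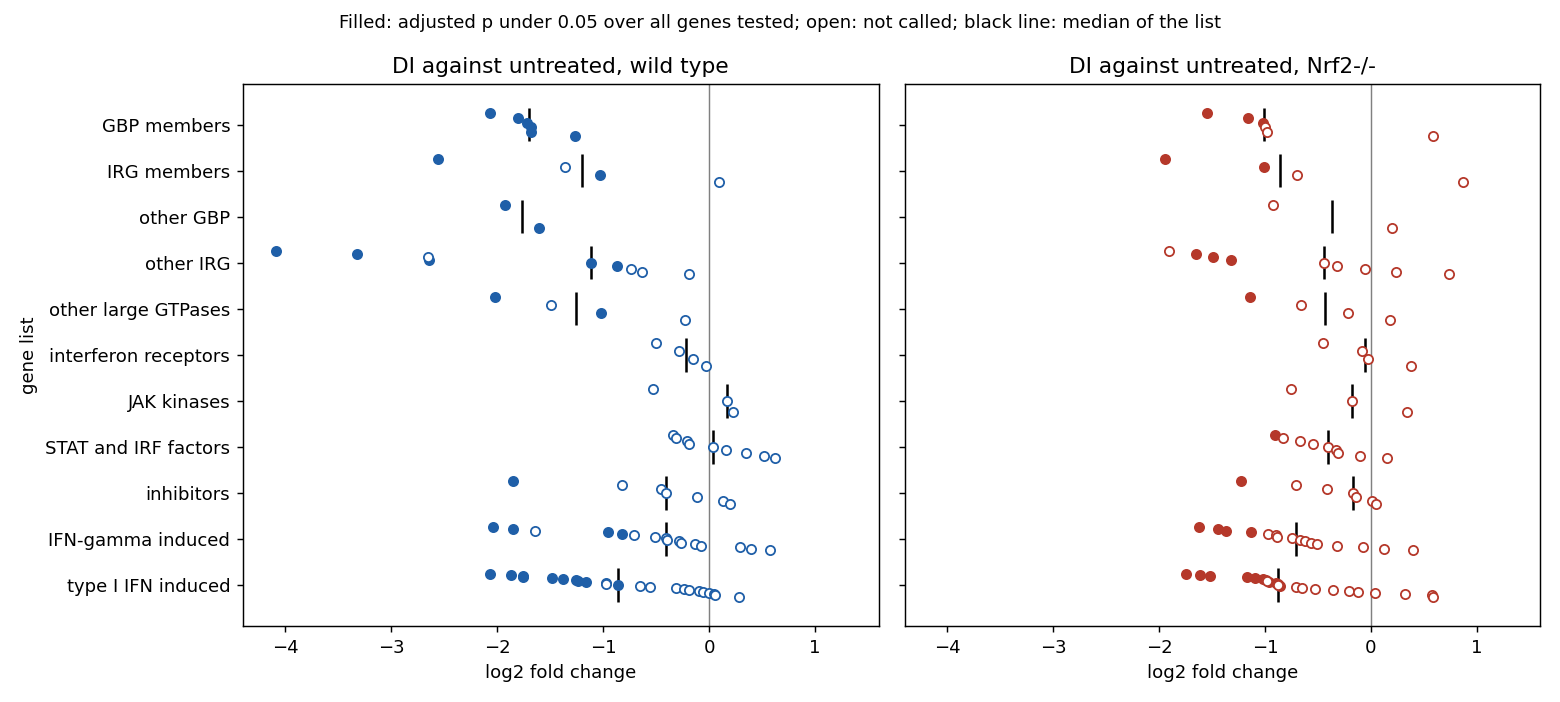
Log2 fold change with DI (x axes) of the tested genes of 11 lists (y axis) in wild type (left) and Nrf2-/- (right), with filled points at an edgeR adjusted p under 0.05 and a black line at each list's median. The median of the GBP members lies below those of all other lists in wild type except the 2 other GBPs, and the lists of receptors and JAK kinases hold no filled point in either genotype. The lowest point among the other IRGs is 9930111J21Rik1, whose wild-type DI libraries held 1 count in all, so that its fitted position is no measured fold.

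Genes that act with the GTPases at vacuoles were counted in 2 lists. The ATG8 conjugation machinery directs these GTPases to vacuoles, and of 10 genes of it 1 rose in wild type. That count is near the 6.51% of all genes tested that rose. In Nrf2-/- none was called by edgeR or DESeq2, and 3 had an unadjusted p under 0.05 by edgeR. The gene was Gabarapl1, with a log2 fold change of 1.03 ± 0.22 (edgeR adjusted p = 0.00899), lost without wild-type untreated replicate 1. Of 6 genes for ubiquitin ligases and the receptors that follow them, 1 rose and 1 fell in wild type and 1 rose in Nrf2-/-. Among all genes tested, 6.51% rose and 8.68% fell in wild type and 4.49% rose in Nrf2-/-. Sqstm1 rose in both genotypes. Sqstm1, which encodes the autophagy receptor p62 and is a known NRF2 target, was 323 and 309.9 CPM in wild-type untreated and 1397 and 1365 CPM in wild-type DI libraries, a log2 fold change of 2.13 ± 0.25 (edgeR adjusted p = 0.000183). Sqstm1 rose in Nrf2-/- by 1.22 ± 0.24 (edgeR adjusted p = 0.0126), a call lost without either untreated replicate or DI replicate 1. Trim21 fell in wild type with -0.77 ± 0.24 (edgeR adjusted p = 0.0466), a call lost in 8 of 14 alternatives, among them each of the 4 wild-type libraries left out.

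Of 10 genes of the inflammasome that senses lipopolysaccharide or DNA released by GBPs, 3 fell in wild type, where 8.68% of all genes tested did. In Nrf2-/- 1 of the 10 fell, near the 4.0% of all genes tested. Il18, the precursor of an interleukin that inflammatory caspases cut, was 52.6 and 34.0 CPM in wild-type untreated and 10.4 and 10.3 CPM in wild-type DI libraries, and fell with a log2 fold change of -2.06 ± 0.26 (edgeR adjusted p = 0.000295) in all 14 alternatives. Casp4, the mouse gene for caspase-11, which binds lipopolysaccharide, fell with -1.21 ± 0.26 (edgeR adjusted p = 0.00847), lost without untreated replicate 2 or DI replicate 2. Aim2, a sensor of cytosolic DNA, fell with -1.03 ± 0.31 (edgeR adjusted p = 0.0426), lost in 6 of 14 alternatives, which include leaving out untreated replicate 2, DI replicate 1 or either Nrf2-/- untreated library. In Nrf2-/- the gene was Pycard, the adaptor ASC, with -0.77 ± 0.21 (edgeR adjusted p = 0.0394), lost in 7 of 14 alternatives, which include each Nrf2-/- library and either wild-type untreated library left out.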

How the data were processed

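The deposited file holds raw counts per Ensembl gene and library, which the authors deposited without normalization. Per the submitters' processing notes, the build was mm10 and the tools include HTSeq, STAR and DESeq2, with no role or version given. Per the labels' protocols, an oligo-dT primer with a library barcode and 12 PCR cycles gave strand-specific libraries, with no molecular identifier described. Symbols and coordinates came from GENCODE release M21, which matched 21745 of 22165 genes by identifier. Genes were filtered with filterByExpr (minimum count 10) and scaled by TMM. One mean per group was fitted to all 8 libraries with edgeR 4.0.16 (R 4.3.3), and tested by the robust quasi-likelihood F-test with Benjamini-Hochberg adjustment over 11079 genes. An adjusted p under 0.05 was called. Likeness used log2 CPM with a prior count of 2. Standard errors are those of the fitted model. Alternatives were DESeq2 1.42.0, its size factors in edgeR, no filter, a replicate block, an offset for the highest count of A in 15 coding bases, fits of the 4 libraries compared, and each library left out. Steps were tested on simulated data. The members and lists were chosen with earlier results of these data known. A transcription factor and a cell type marker of these lists are not reported here. Named are all members, the other family genes, up to 4 called genes with the smallest p of each list per DI comparison, of which some are given by count only, and the 8 genes most like the members.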

Additional observations from a re-analysis of the deposited data

Results flagged for a closer look

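The members, the other family genes and the listed genes chosen for a call with DI were searched for differences between the genotypes. By the interaction test, the change with DI differed for 7 of them. The pathway genes among them were named for a call with DI, so their number cannot be set against a share of all genes. That share was 4.96% with a higher and 2.59% with a lower value in Nrf2-/-. Xaf1 of the type I interferon list, which was not among the chosen genes, also differed (1.56, edgeR adjusted p = 0.0473). Gbp9 was the one member among the 7, with a difference of 2.27 (log2, Nrf2-/- minus wild type). In its own family, the difference was 1.80 for Gbp8, 4.06 for Tgtp2, whose 3′ end is shared with Tgtp1, and 2.32 for 9930111J21Rik2. Among the pathway genes it was -1.25 for Irf5, 2.46 for Ifih1, a sensor of viral RNA, and 1.81 for Il18. Ifih1 was 239.5 and 467.2 CPM in wild-type untreated, 91.6 and 101.7 in wild-type DI, 204.2 and 171.2 in Nrf2-/- untreated and 358.8 and 205.2 CPM in Nrf2-/- DI libraries, so that its mean was lower with DI in wild type and higher in Nrf2-/-, as was that of Gbp9. Of 13 alternatives, the difference passed in 12 for Ifih1 (not without Nrf2-/- untreated replicate 2), 11 for Il18 (not without either Nrf2-/- untreated library), 7 for Tgtp2, 6 for Gbp9 and Irf5, 5 for Gbp8 and 4 for 9930111J21Rik2. For Tgtp2 it was lost without either Nrf2-/- untreated library, wild-type untreated replicate 1, Nrf2-/- DI replicate 1 or either wild-type DI library. For Irf5 it was lost with the A-rich offset, without any 1 of the untreated libraries and without replicate 1 of either DI group.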

How the results depend on the processing

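Each result was recomputed under up to 14 alternatives. Of 349 recomputed values of the members, 289 kept their direction and their side of the threshold, 46 lost a call, 11 gained one and 3 turned direction. Those that turned were Irgm1 in Nrf2-/- without Nrf2-/- DI replicate 1 (-0.26; from there to 1.53 over the libraries left out) and Igtp in wild type with the A-rich offset (-0.015) and without wild-type untreated replicate 2 (-0.15; from there to 0.39). With 1 library left out, the members called ran from 4 to 9 in wild type, 2 to 5 in Nrf2-/-, 0 to 2 for the interaction and 1 to 5 for Nrf2-/- against wild type with DI, and stayed at 0 for the genotypes untreated. A lone library was then assumed to vary like the other groups. Without a filter, 8 members were called in Nrf2-/- (7 lower and 1 higher) and 3 for the interaction, and DESeq2 also called 3 for the interaction. The A-rich offset left 0 members for the interaction, and it left 2 for Nrf2-/- against wild type with DI, as did the fit of the 4 DI libraries. The cause was not tested. Over all genes, dropping the filter raised the calls in Nrf2-/- from 443 lower and 497 higher to 668 and 1029, those for the interaction from 287 and 549 to 491 and 1106, and those between untreated genotypes from 58 and 9 to 325 and 72, where DESeq2 gave 142 and 34 and the fit of the 4 untreated libraries 57 and 14. With 1 library left out, genes called lower and higher with DI ran from 506 to 1001 and 290 to 745 in wild type, where the fit of all libraries gave 962 and 721, and from 74 to 491 and 29 to 598 in Nrf2-/-. Those for the interaction ran from 101 to 324 and 137 to 609, those between untreated genotypes from 10 to 65 and 1 to 16, and those between genotypes with DI from 520 to 1021 and 654 to 1203, beside 1079 and 1266 with all libraries. DESeq2 gave no adjusted p for 9930111J21Rik1 in wild type, so it has no value there.

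Deviations of same-numbered libraries correlated from -0.08 to 0.156. With 2 libraries per group this cannot show whether the replicate numbers mark pairs, and the labels do not say. With the replicate number as a block, 8 members were called in wild type, 5 in Nrf2-/-, 1 for the interaction, 0 between the genotypes untreated and 4 between them with DI. The block ended 2 calls of genes that are no members, the interaction of Gbp8 (1.80, edgeR adjusted p = 0.0584) and the fall of Cxcl9, an interferon-gamma induced gene, in wild type (-1.84, 0.0598). Low counts limit Gbp4 and Gbp5 most, with 14 and 28 counts in their lowest libraries.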
